A study of Mus musculus with 20 samples.

Results

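The 10 genes described here encode enzymes of glycolysis, the cytosolic pathway that splits glucose into pyruvate, together with the enzyme that turns pyruvate into lactate. They were named by symbol, with earlier results of these data known. They are Hk1, Hk2, Pfkl, Aldoa, Tpi1, Gapdh, Pgk1, Pgam1, Pkm and Ldha, 10 of the 24062 genes in the table. All 10 passed the filter on low values at both ages. The study asked how the microglial transcriptome of a mouse model of α-synuclein overexpression differs from that of its littermates as motor symptoms progress. RNA was sequenced from microglia of the whole brain of single male mice on the B6D2F1/J background. The hemizygous mThy1-α-synuclein mice, called mThy1 here, carry human wild-type α-synuclein on the X chromosome under the murine Thy-1 promoter, which is active mainly in neurons, so the microglia were studied in a brain whose neurons make the human protein. There were 6 mThy1 and 4 wild-type mice at 7 months, and 5 of each genotype at 10 months. The labels give the cells as selected with IBA1 beads, whereas the methods of the study describe beads against CD11b, a marker that neutrophils, monocytes and border macrophages also carry.

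Glycolysis yields ATP without oxygen and feeds the pentose phosphate pathway and the mitochondria. In microglia and other macrophages a shift toward glycolysis and lactate release is known to accompany activation by inflammatory stimuli. Many genes of the pathway are known targets of hypoxia-inducible factors, transcription factors that bind the letters ACGTG or GCGTG in DNA and that also act in activated macrophages with normal oxygen.

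Values are normalized counts, that is reads assigned to a gene divided by a size factor of that mouse. Reads on genes ran from 33404096 to 77806399 per mouse, and in the most alike of 41 pairs of mice within groups the chi-square per gene was 24.7, so no 2 mice agreed within sampling noise. The transgene cassette gave a check of the labels, because Thy1 ran from 392.5 to 1298 normalized counts in the 6 mThy1 mice and from 17.7 to 47.6 in the 4 wild-type mice at 7 months, and from 1117 to 1741 against 9.41 to 32.4 at 10 months. All 12 microglial markers examined were well expressed, with Cx3cr1 at a mean of 291772 and P2ry12 at 285487 normalized counts. Neutrophil transcripts were abundant too, with S100a9 at a mean of 72452 normalized counts, above the mean of every glycolytic enzyme. In such bulk samples, fewer cells of a type and less RNA per cell cannot be told apart.

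The promoter windows of the 3 enzymes with the clearest change at 10 months are shown, to set their sequence beside the hypoxia-related genes described further on. Each line is the 250 bases before the annotated start in RefSeq (GRCm38.p6, the mm10 build), 5′ to 3′ on the strand of the gene, with ACGTG and GCGTG on either strand in capitals.
Ldha, chr7:46845554-46845803, plus strand: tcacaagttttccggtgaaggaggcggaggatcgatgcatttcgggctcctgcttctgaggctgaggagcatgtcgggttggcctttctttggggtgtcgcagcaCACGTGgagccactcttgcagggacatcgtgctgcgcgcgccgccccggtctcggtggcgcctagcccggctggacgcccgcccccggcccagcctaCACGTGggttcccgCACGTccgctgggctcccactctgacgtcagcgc
Pgk1, chrX:106186850-106187099, plus strand: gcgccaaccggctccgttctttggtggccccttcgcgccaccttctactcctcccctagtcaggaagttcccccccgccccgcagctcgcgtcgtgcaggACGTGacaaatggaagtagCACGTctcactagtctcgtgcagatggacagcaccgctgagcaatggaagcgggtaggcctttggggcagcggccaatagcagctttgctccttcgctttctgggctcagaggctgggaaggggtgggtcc
Pfkl, chr10:78009808-78010057, minus strand: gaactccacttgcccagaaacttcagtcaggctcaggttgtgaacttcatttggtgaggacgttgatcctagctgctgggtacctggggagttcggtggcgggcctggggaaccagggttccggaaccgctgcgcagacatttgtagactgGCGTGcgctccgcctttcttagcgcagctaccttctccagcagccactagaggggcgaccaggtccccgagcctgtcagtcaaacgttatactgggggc
The Ldha window held ACGTG at 3 places, 2 of them inside the palindrome CACGTG, which reads as ACGTG on both strands. It is the one of the 2 RefSeq windows of Ldha with more matches, since the other held no ACGTG. Pgk1 held ACGTG at 2 places. Pfkl held no ACGTG and 1 GCGTG. In windows that run from 250 bases before to 50 after the start, 8 of the 10 enzymes had ACGTG in at least 1 window, which came to 9 of their 15 windows, against 19.6% of all 32851 windows. Either motif was present in 11 of the 15 windows and in 43.8% of all windows. Hk1, Hk2, Gapdh and Pkm, the enzymes not called at either age, each held ACGTG in at least 1 window. Of the enzymes called at 10 months, Pfkl and Tpi1 held no ACGTG, and the window of Tpi1 held neither motif. These matches describe letters in a window and were not tested as binding sites.

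At 7 months none of the 10 glycolytic enzymes passed the test between the genotypes, and their levels overlapped in every case. Of the 10 enzymes, 0 passed an adjusted p of 0.05 in limma (Benjamini-Hochberg over 13887 genes, of which 4.93% were called, 2.7% lower and 2.23% higher), and 0 had an unadjusted p under 0.05, against 21.3% of all genes. Among all genes the groups did not overlap in 7.53%. On the recovered reads edgeR called 0 enzymes and 4.7% of all genes, and DESeq2 0 enzymes and 7.91%. Log2 fold changes of mThy1 over wild type, on the log2(value + 1) scale used throughout, ran from -0.14 to 0.21 with a median of 0.01, and 5 were negative, against 49.8% of all genes. The extremes were Pkm (-0.14, 95% interval -0.34 to 0.07) and Pfkl (0.21, -0.01 to 0.43). The 10-month estimate lay outside the 7-month interval for Ldha (-0.16 to 0.24), Pgk1 (-0.24 to 0.21), Pgam1 (-0.16 to 0.24), Tpi1 (-0.19 to 0.27) and Pfkl, and inside it for Aldoa (-0.30 to 0.06). This leaves out the error of the 10-month estimates and is no test of a difference between ages, which is given further on.

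At 10 months, 6 of the 10 enzymes were lower in mThy1 mice and none was higher. Ldha, Pgk1, Pfkl, Pgam1, Aldoa and Tpi1 passed the test. Ldha fell by 25.4%, and Pgam1, the least changed of the 6, fell by 17.5%. Over all 13627 genes tested, 7.67% were called and 3.79% were called lower. The log2 fold change was negative for 9 of the 10 enzymes, against 50.5% of all genes, 8 had an unadjusted p under 0.05, against 23.5%, and the median over the enzymes was -0.28, against -0.0026 over all genes. In 4 enzymes every mThy1 mouse lay below every wild-type mouse, which held for 3.49% of all genes, and 7.27% were separated in either direction.

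**Figure D1:**
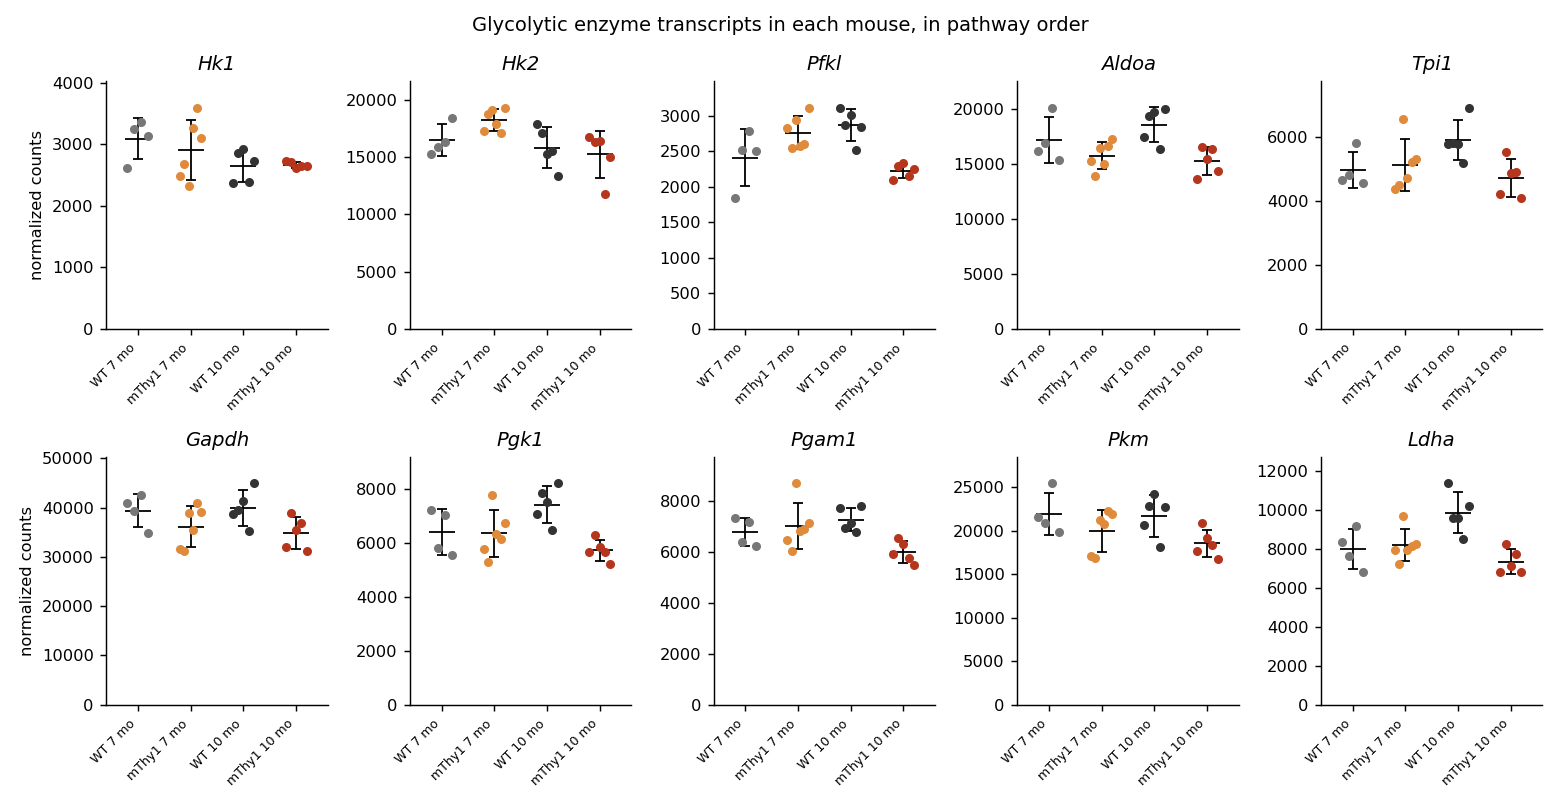
Normalized counts (y axis, linear from 0, own scale per panel) of the 10 enzymes in each mouse, with 1 point per mouse and the mean ± SD of each group in black. At 10 months the mThy1 and wild-type points do not overlap for Pfkl, Pgk1, Pgam1 and Ldha, and at 7 months they overlap for all 10 enzymes.

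The first steps of the pathway trap glucose in the cell and commit it to breakdown. Hk1 (chromosome 10, 62268855 to 62379908) and Hk2 (chromosome 6, 82725025 to 82774454) are hexokinases, which phosphorylate glucose. Hk2 was the more abundant, and neither was called at any age. At 10 months Hk1 ran from 2613 to 2734 normalized counts in mThy1 and from 2371 to 2922 in wild-type mice (log2 fold change 0.015, 95% interval -0.14 to 0.17). Hk2 ran from 11813 to 16795 against 13313 to 17899.7 (-0.056, -0.27 to 0.16). At 7 months, Hk2 was 18233 ± 939 (SD, n = 6) in mThy1 and 16473 ± 1386 (SD, n = 4) in wild-type mice (0.15, adjusted p = 0.240 by limma).

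Pfkl (chromosome 10, 77986947 to 78010083, minus strand) encodes the liver-type subunit of phosphofructokinase, which catalyses the committed step. At 10 months its normalized counts were 2101, 2298, 2339, 2151 and 2246 in the 5 mThy1 mice and 3113, 2865, 3007, 2524 and 2846 in the 5 wild-type mice. The groups did not overlap. The log2 fold change was -0.36 ± 0.070 (SE; limma adjusted p = 0.00862). At 7 months the 6 mThy1 mice ran from 2541 through a median of 2711 to 3101, and the 4 wild-type mice had 1836, 2519.6, 2786 and 2501. Here the mThy1 values were inside or above the wild-type range, with 3 of 6 above it (0.21, adjusted p = 0.265). The low wild-type value, 1836 in replicate 1, weighed on that difference, which was 0.084 without it. The change of the genotype effect between ages was -0.57 ± 0.13 (SE; adjusted p = 0.00967 over 14457 genes, of which 6.36% were called).

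The middle of the pathway splits the sugar and interconverts the triose phosphates. Aldoa (chromosome 7, 126795234 to 126800751) is aldolase A. At 10 months it had 13614, 16562, 15508, 16384 and 14411 normalized counts in mThy1 mice and 17441, 19368, 19729, 16408 and 19999 in wild-type mice. All mThy1 mice but replicate 2 lay below the lowest wild-type mouse (-0.28 ± 0.077, SE, adjusted p = 0.0405). Tpi1 (chromosome 6, 124810586 to 124814296) is triosephosphate isomerase, with 4227, 5518, 4870.2, 4893 and 4077 in mThy1 mice against 5786, 5809, 5791, 5189 and 6913. Again 4 of 5 mThy1 mice lay below the wild-type range, with replicate 2 inside it (-0.32 ± 0.092, SE, adjusted p = 0.0452). These 2 calls were the least stable of the 6. Both were lost when 1 of 7 mice was left out, namely mThy1 replicate 1, 3 or 5 or wild-type replicate 1, 2, 3 or 5 (adjusted p up to 0.0949 for Aldoa and 0.108 for Tpi1), and edgeR, which called 8.44% of all genes, did not call Tpi1.

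Gapdh (chromosome 6, 125161715 to 125166467), glyceraldehyde-3-phosphate dehydrogenase, is often used as a reference gene. It was not called, at 34868 ± 3253 (SD, n = 5) in mThy1 against 39948 ± 3584 (SD, n = 5) in wild-type mice at 10 months (-0.20, 95% interval -0.37 to -0.03, limma adjusted p = 0.152). Reads of Gapdh are hard to place, because 77 annotated genes share at least 95% of its transcript over 200 bases or more, and 75 of these are pseudogenes. Of them 2 had a row in the table. The processed pseudogene Gm12070, named after its values were seen, is 99.9% identical over 1002 bases and had a mean of 6383 normalized counts, and the 2 rows together amounted to 17.2% of the Gapdh level. The log2 fold change of Gm12070 was -0.15 at 7 months and -0.20 at 10 months (adjusted p = 0.394 and 0.168 by limma). For the other 9 enzymes no such near copy had a row in the table.

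Pgk1 (chromosome X, 106187100 to 106203699) is phosphoglycerate kinase, the first ATP-yielding step. At 10 months it had 5658, 6299, 5874, 5659 and 5224 normalized counts in mThy1 mice and 7087, 7866, 7549.5, 6477 and 8230.2 in wild-type mice. The groups did not overlap (-0.37 ± 0.075, SE, adjusted p = 0.0106). At 7 months it ran from 5305 through a median of 6255 to 7800.1 in mThy1 mice, and the wild-type values of 7249.8, 5824, 7034 and 5567 lay inside that range (-0.013, adjusted p = 0.962). Pgam1 (chromosome 19, 41911923 to 41918660), phosphoglycerate mutase, followed the same pattern at 10 months, with 5939, 6548, 6299, 5755 and 5482 in mThy1 mice against 7711, 6959.7, 7127, 6779 and 7793 in wild-type mice. The lowest wild-type mouse lay above the highest mThy1 mouse (-0.28 ± 0.068, SE, adjusted p = 0.0263). The Pgam1 call was lost without mThy1 replicate 1 or 5 or wild-type replicate 1 or 5 (adjusted p up to 0.0671).

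The last steps make pyruvate and lactate. Pkm (chromosome 9, 59656368 to 59679375) is pyruvate kinase of the muscle type, and its M1 and M2 isoforms are not told apart by counts per gene. It was not called at 10 months, with 18532 ± 1565 (SD, n = 5) in mThy1 and 21681 ± 2379 (SD, n = 5) in wild-type mice (-0.22, 95% interval -0.40 to -0.04, limma adjusted p = 0.124). Without wild-type replicate 4, the wild-type mouse with the lowest Pkm, its adjusted p was 0.0343.

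Ldha (chromosome 7, 46841475 to 46855627) encodes the lactate dehydrogenase subunit that favours lactate formation, and had the largest log2 fold change of the 10 enzymes at 10 months. The mThy1 mice had 6807, 8275, 7117, 7721 and 6808 normalized counts and the wild-type mice 11379, 9587, 9573, 8525 and 10233. Every mThy1 mouse lay below every wild-type mouse (-0.42 ± 0.082, SE, limma adjusted p = 0.00897). At 7 months the mThy1 mice ran from 7254 through a median of 8047 to 9700.4. The wild-type mice had 8346, 7627, 9208 and 6809, so the ranges overlapped in part (0.041, limma adjusted p = 0.836). The change of the genotype effect between ages was -0.46 ± 0.13 (SE; adjusted p = 0.0295). That call was lost in 6 of 20 fits with 1 mouse left out (adjusted p up to 0.0733), namely without wild-type replicate 2 or 4 at 7 months, mThy1 replicate 1, 3 or 5 at 10 months, or wild-type replicate 1 at 10 months. By contrast Ldha, Pfkl and Pgk1 at 10 months were called whichever mouse was left out, with adjusted p of at most 0.0339.

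**Figure D2:**
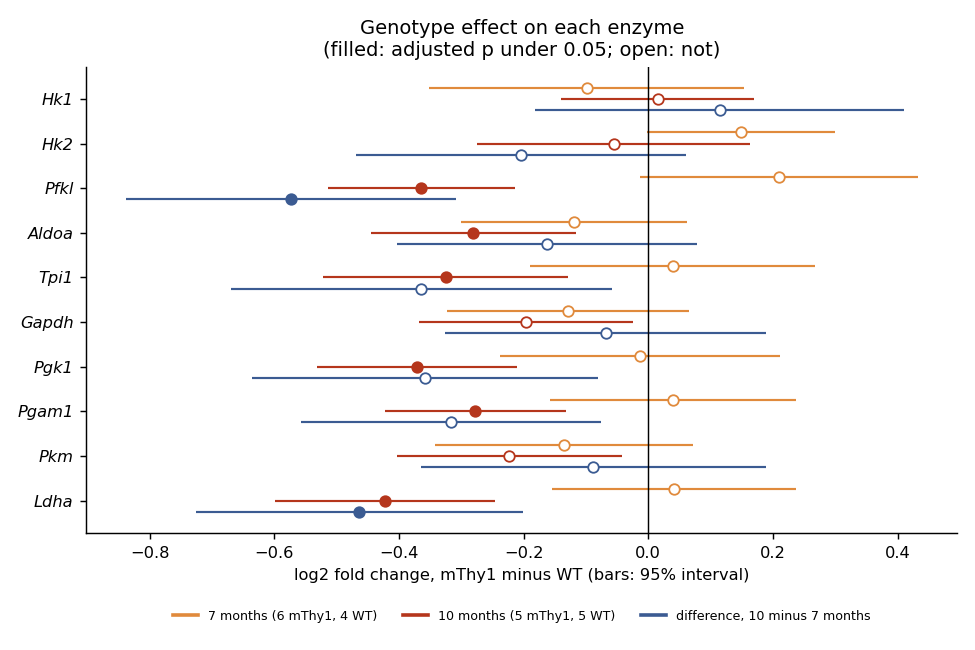
Log2 fold change of mThy1 over wild type (x axis) for each enzyme at 7 months, at 10 months and as the difference of the 2 ages, with 95% intervals from limma as bars. Filled points passed an adjusted p of 0.05, which were 0 at 7 months, 6 at 10 months, all negative, and 2 for the difference (Pfkl -0.57 and Ldha -0.46).

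The difference between the ages was tested itself. In 1 fit of all 20 mice, the genotype effect of 2 of the 10 enzymes, Pfkl and Ldha, was lower at 10 than at 7 months, against 2.62% of all genes called in that direction and 3.74% in the other. The difference was negative for 9 of 10 enzymes (49.9% of all genes) and had an unadjusted p under 0.05 for 5 (21.9%). Its median was -0.26, and it was not called for Pgk1 (-0.36, 95% interval -0.64 to -0.08, adjusted p = 0.112), Pgam1 (-0.32, -0.56 to -0.08, 0.105), Tpi1 (-0.36, -0.67 to -0.06, 0.146) or Aldoa (-0.16, -0.40 to 0.08, 0.445). For these 4 enzymes a lower level in mThy1 mice at 10 months and no call at 7 months is thus not shown to be a difference between ages. Each age was processed and scaled on its own, so age cannot be told apart from processing in any level set across ages.

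The enzymes differed widely in level. As reads per kilobase of exon per 1000000 reads on genes, averaged over 20 mice, Gapdh stood highest at 181.9, followed by Aldoa at 114.9, Pkm at 82.0, Pgam1 at 68.7, Pgk1 at 58.1, Hk2 at 55.6, Ldha at 50.8 and Tpi1 at 37.8. Pfkl at 7.78 and Hk1 at 6.63 were far lower. Among 12857 genes tested at both ages, Gapdh stood at percentile 98.5, Tpi1 at 91.5 and Pfkl at 64.7. Gapdh exceeded Aldoa, Aldoa exceeded Pkm, and Tpi1 exceeded Pfkl in every mouse of every group. Neighbours from Pgam1 to Ldha overlapped in all 4 groups, Pkm and Pgam1 in 2 groups and Ldha and Tpi1 in 1, and the order of Pfkl and Hk1 held without overlap only in 10-month wild-type mice. Summed, the 10 enzymes made up 0.236% ± 0.015 of normalized counts in mThy1 (SD, n = 5) and 0.277% ± 0.018 in wild-type mice (SD, n = 5) at 10 months, and 0.236% ± 0.016 (SD, n = 6) against 0.243% ± 0.011 (SD, n = 4) at 7 months.

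Apart from genotype, most of the enzymes varied together from mouse to mouse. After the log2 values were centred on the mean of each group, the 21 pairs among the 7 enzymes from Aldoa to Ldha had Pearson correlations of 0.50 to 0.89 over 20 mice, with a median of 0.78. The 17 pairs that included a hexokinase ran from -0.30 to 0.54, with a median of -0.048, so the ranges overlapped, and the highest, Hk1 with Pkm at 0.54, exceeded the lowest pair of the 7 enzymes. Set against the mean of the other 9 enzymes, Pkm stood highest (r = 0.91, Spearman's rho 0.92), Pfkl was weaker (0.43, 0.52), and Hk1 (0.16, 0.20) and Hk2 (-0.078, -0.014) were weakest. Of 13474 other genes, the 5 most like the mean of the enzymes were Plin2, a lipid droplet coat protein (r = 0.83, rho 0.77), Arpc1b, an actin-nucleating complex subunit (0.81, 0.86), Copb2, a coatomer subunit (0.81, 0.79), Ndufa1, a subunit of respiratory complex I (0.81, 0.83), and Arl11 (0.80, 0.80). These correlations describe 20 mice in 4 groups whose values share each mouse's scaling, and the split of the enzymes was made after the correlations were seen.

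**Figure D3:**
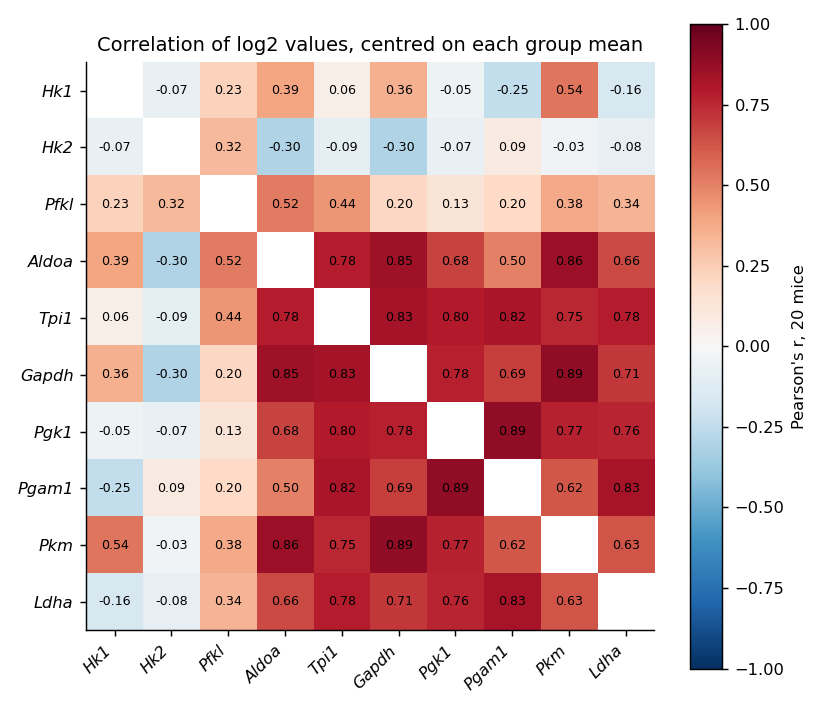
Pearson's r of each pair of enzymes over 20 mice, from log2 values centred on the group mean, with enzymes in pathway order on both axes and colour from -1 (blue) to 1 (red). The block from Aldoa to Ldha runs from 0.50 to 0.89, and the pairs with a hexokinase from -0.30 to 0.54.

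Genes around the pathway were taken from 7 lists of glucose metabolism genes, 101 in all, of which 88 were tested at 7 months and 87 at 10 months. Of 11 genes of glucose and lactate transport tested, 3 were lower at 10 months (3.79% of all genes were) and 0 higher, and 0 were called at 7 months. Slc16a3, the lactate exporter MCT4, had 1020.5, 1206, 1322, 1128 and 1357 normalized counts in mThy1 mice and 2117, 2244, 1998, 1681 and 2259 in wild-type mice at 10 months. The groups did not overlap, the change was -0.77 ± 0.0996 (SE, limma adjusted p = 0.000894), and it differed from the 7-month effect of 0.014 (difference -0.78, adjusted p = 0.0187). Slc2a1, the glucose transporter GLUT1, was lower in 4 of 5 mThy1 mice than in any wild-type mouse (-0.41, adjusted p = 0.0491, with a difference between ages of -0.63, adjusted p = 0.0371). Slc2a3, the glucose transporter GLUT3, was lower in mThy1 mice by 0.70 on the log2 scale (adjusted p = 0.0432). The Slc16a3 calls held whichever mouse was left out, but the 10-month call of Slc2a1 was lost for every mouse left out except replicate 4 of either genotype, and that of Slc2a3 for every mouse except wild-type replicate 4. The Slc2a1 difference between ages was lost in 12 of 20 such fits (adjusted p up to 0.0780). The most abundant of the list, Bsg, a chaperone of lactate transporters (-0.099, adjusted p = 0.478), and Slc2a5, the fructose transporter that marks microglia (0.029, adjusted p = 0.847), were not called.

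Among 14 hypoxia-response genes outside glycolysis, 3 were lower at 10 months and 0 higher, against 3.79% and 3.88% of all genes, with a list median of -0.0015. P4ha1, a collagen prolyl hydroxylase subunit, had 14561, 19218, 16773, 12872 and 12682 normalized counts in mThy1 mice and 26302.5, 25905, 22147, 28287 and 23982 in wild-type mice (-0.75 ± 0.11, SE, limma adjusted p = 0.00217). At 7 months it went the other way, from 17592 to 21752 in mThy1 against 13513.5 to 15034 in wild-type mice (0.46, adjusted p = 0.00248), and the ages differed by -1.21 (adjusted p = 1.65e-05). Vegfa, the endothelial growth factor, was lower by 1.04 and Ndrg1 by 0.90 in mThy1 mice at 10 months on the log2 scale (adjusted p = 0.00950 and 0.00280), both without overlap. Bnip3l, the other of the 2 most abundant genes of the list, gave 0.061 (adjusted p = 0.672). Of the 16 regulators tested at 10 months, 0 were called in either direction. Hif1a itself gave 0.11 (95% interval -0.10 to 0.32) at 10 months and 0.39 (limma adjusted p = 0.140) at 7 months. At 7 months every mThy1 mouse exceeded every wild-type mouse without a call, and 7.53% of all genes were separated in either direction. Myc, a transcription factor that drives growth metabolism, was higher at 7 months (0.89, adjusted p = 0.00183) and gave -0.066 at 10 months (difference -0.96, adjusted p = 0.0290). Egln3, an oxygen-sensing prolyl hydroxylase, and Pfkfb4, which makes an activator of phosphofructokinase, were called only for the difference between ages (-1.08, adjusted p = 0.0319 and -0.39, adjusted p = 0.0339). These differences for Myc, Egln3 and Pfkfb4 were lost in 6, 6 and 8 of 20 fits with 1 mouse left out, and the calls of P4ha1, Vegfa and Ndrg1 in none.

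**Figure D4:**
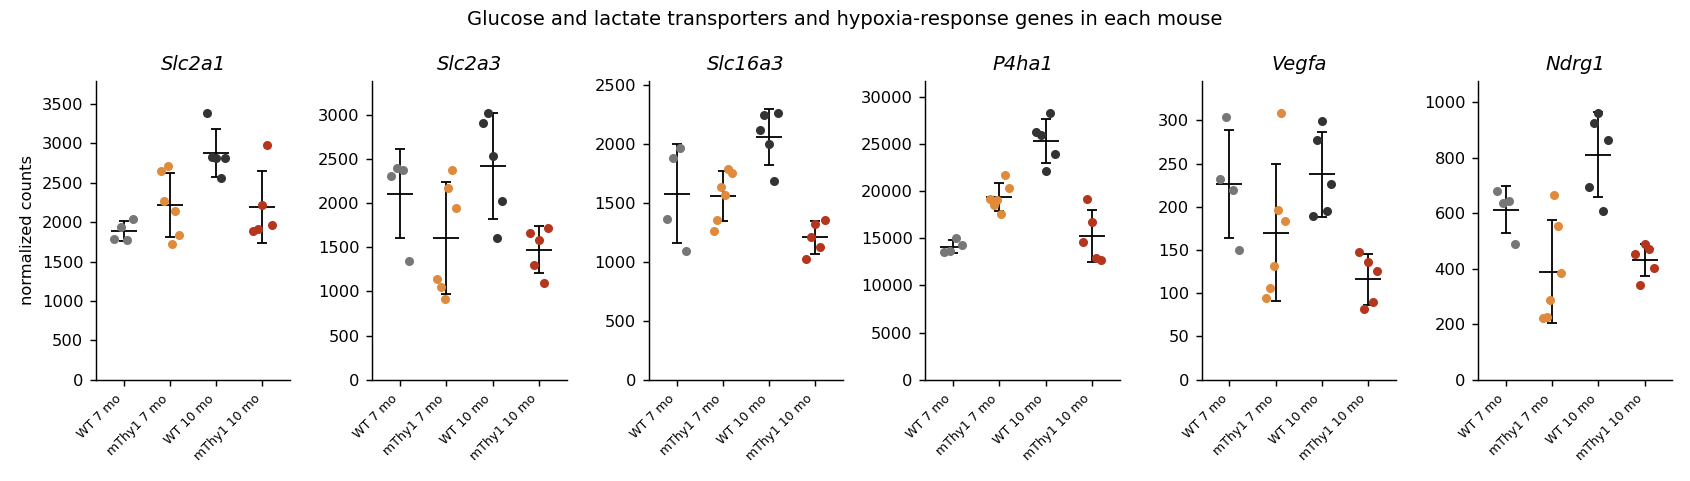
Normalized counts (y axis, linear from 0, own scale per panel) of 3 transporters and 3 hypoxia-response genes in each mouse, with 1 point per mouse and the mean ± SD of each group in black. Slc16a3, P4ha1, Vegfa and Ndrg1 do not overlap between genotypes at 10 months, and P4ha1 does not overlap at 7 months either, in the opposite direction.

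Of 15 genes on the route of pyruvate into mitochondria, 3 were higher at 10 months and 0 lower, against 3.88% of all genes called higher. Pdk1, a kinase that holds back pyruvate dehydrogenase, ran from 9289.8 to 10302 in mThy1 and from 6296 to 7941 in wild-type mice (0.41 ± 0.069, SE, adjusted p = 0.00422). At 7 months every mThy1 mouse lay below every wild-type mouse without a call (-0.24, limma adjusted p = 0.0646). Of all genes, 7.53% were separated in either direction at that age. The Pdk1 effect differed between the ages by 0.64 (limma adjusted p = 0.000373). Pdpr, a regulatory subunit of the phosphatase that releases pyruvate dehydrogenase, gave 0.50 (adjusted p = 0.0103), and Dlat, a core subunit of that complex, gave 0.25 (adjusted p = 0.0483), a call lost when any mouse but wild-type replicate 1 was left out. Of 13 other glycolytic isozymes tested, 1 was called at 10 months, a share near the 7.67% of all genes. This was Ldhb, the lactate dehydrogenase subunit that favours pyruvate formation, at 17519.7 ± 1148 (SD, n = 5) in mThy1 and 13521 ± 2064 (SD, n = 5) in wild-type mice (0.39, adjusted p = 0.0325). This call was lost without mThy1 replicate 2, 3, 4 or 5 or wild-type replicate 2 (adjusted p up to 0.0762). The abundant isozyme gene Gpi1, glucose-6-phosphate isomerase, was not called (-0.23, adjusted p = 0.0653). At 7 months 2 of 15 isozymes were lower, against 2.7% of all genes. These were Aldoc, the aldolase typical of astrocytes (-1.24, adjusted p = 0.00347), and Pfkm, the muscle-type phosphofructokinase (-0.40, adjusted p = 0.0173, lost without wild-type replicate 1 or 2). For both, the genotype effect was higher at 10 than at 7 months, by 1.53 for Aldoc (limma adjusted p = 0.00527) and 0.65 for Pfkm (0.00255). Of all genes, 3.74% were called in that direction, and both differences held whichever mouse was left out. At 10 months Aldoc gave 0.30 and Pfkm 0.25 (limma adjusted p = 0.444 and 0.111). For Pfkm every mThy1 mouse was above every wild-type mouse, and 7.27% of all genes were separated in either direction. At 7 months, when 2.7% of all genes were called lower and 2.23% higher, 8 of 10 astrocyte markers were negative with a median log2 fold change of -1.20. Of them 4 were called lower and 1 higher, with overlapping sums of 9715 to 12410 in mThy1 against 9172.5 to 11795 in wild-type mice. Of 14 neuronal markers other than Thy1, 6 were called lower and 0 higher, with sums of 762 to 1140.1 against 1448 to 2243. All 9 oligodendrocyte markers tested were negative (3 called), with sums of 7907 to 10343 against 12937 to 18487, as were all 9 endothelial markers (2 called), with sums of 3078 to 5078 against 5586 to 6721. The part of these cells in the 2 isozymes was not tested.

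Markers of other myeloid cells moved with genotype at 10 months, when 3.79% of all genes were called lower and 3.88% higher. The 7 monocyte markers, summed, ran from 15114 to 25358 normalized counts in mThy1 and from 25949 to 49732 in wild-type mice, and 4 of the 7 were called lower. The 8 border macrophage markers ran from 19568 to 25096 against 26491 to 36610.5, and again 4 were called lower. Neutrophil markers, of which 7 of 8 had a row, ran from 72347 to 196691 against 155818 to 388573, with 7 of 7 negative and 1 called. Lymphocyte markers were scarce, at 292 to 583 against 715 to 1794. Microglial markers leaned the other way, with 4 of 12 called higher and a median log2 fold change of 0.17. Haemoglobin genes of both chains were listed at 0 in all mice.

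These marker levels were then added to the 10-month fit as a covariate, a choice made after seeing the data. With the neutrophil sum, 0 of 10 enzymes passed, and 0.338% of all genes did, while the median over the enzymes was -0.29. Ldha then gave -0.50 (limma adjusted p = 0.0960), Pgk1 -0.34 (0.215) and Pfkl -0.29 (0.251). With the monocyte sum 0 enzymes and 0.0734% of all genes passed, and the median was -0.19. With the border macrophage sum 0 enzymes and 0.0294% of all genes passed, the median was -0.11, and Ldha gave -0.099 (adjusted p = 0.932). Because the monocyte and border macrophage sums do not overlap between the genotypes at 10 months, they cannot be told apart from genotype in these 10 mice. For the difference between ages, Pfkl and Ldha were still called with the neutrophil sum (-0.58 and -0.47, adjusted p = 0.00844 and 0.0283, with 8.12% of all genes called) and with the monocyte sum (-0.59 and -0.44, adjusted p = 0.00837 and 0.0378, with 8.97% called). With the border macrophage sum they were not (-0.61 and -0.45, adjusted p = 0.0532 and 0.164), when 1.22% of all genes passed.

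Over 20 mice and after centring on group means, the mean of Aldoa to Ldha had a Pearson correlation of 0.16 with the log2 neutrophil sum (rho 0.19), 0.32 with the monocyte sum (rho 0.32) and -0.23 with the border macrophage sum (rho -0.28). For Ldha alone r was -0.018, 0.13 and 0.029, but the enzymes differed widely. Over the 10 enzymes r ran from -0.12 (Hk2) to 0.69 (Hk1) with the neutrophil sum. With the monocyte sum it ran from -0.11 (Hk2) to 0.64 (Hk1), and with the border macrophage sum from -0.43 (Hk1) to 0.22 (Hk2). Pkm gave 0.45 with the neutrophil and 0.58 with the monocyte sum, and Gapdh 0.37 and 0.50. At 7 months neutrophil sums fell into a low set of 4 mice, mThy1 replicates 1 to 3 and wild-type replicate 4, at 43902 to 75144, and 6 mice at 245353 to 438524. Ldha ran from 6809 to 9700.4 in the 4 mice and from 7627 to 9208 in the 6, and Pfkl from 2501 to 2936 and from 1836 to 3101, so both overlapped. Pkm had medians of 18485 in the 4 mice and 21717 in the 6, Gapdh of 33152 and 40142, and Hk1 of 2580.3 and 3259, also with overlap. Slc16a3 overlapped too, at 1091 to 1636 in the 4 mice and 1364 to 1965 in the 6, as did Ndrg1, at 221 to 490 and 384 to 681. Slc2a3 did not overlap, at 914 to 1348 in the 4 mice and 1940.1 to 2396 in the 6, nor did Vegfa, at 94.1 to 150.1 and 184.2 to 308.6. The 4 mice were mThy1 but for wild-type replicate 4, so this split is not free of genotype. How many of all genes it separates was not counted. The part of other myeloid cells in the 10-month differences was not tested beyond these values.

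**Figure D5:**
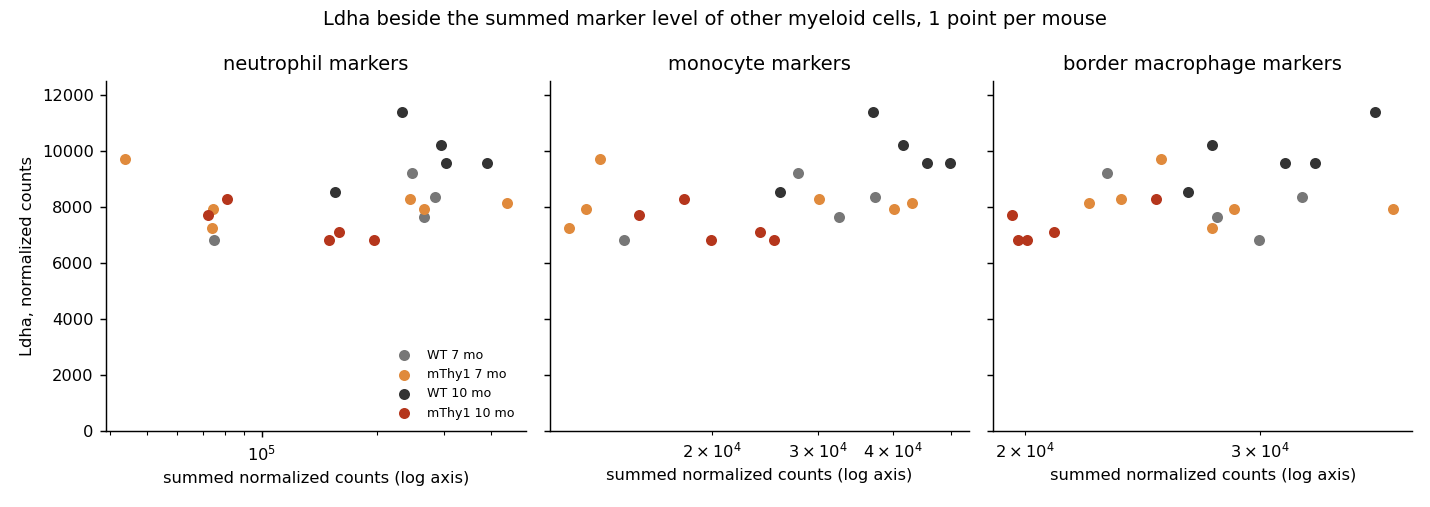
Ldha in normalized counts (y axis, linear from 0) against the summed normalized counts of neutrophil, monocyte and border macrophage markers (x axis, log scale), with 1 point per mouse and colour by group. At 10 months the monocyte sums (15114 to 25358 in mThy1, 25949 to 49732 in wild type) and border macrophage sums separate the genotypes as Ldha does, and the neutrophil sums overlap.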

How the data were processed

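RNA-seq was performed on microglia from 20 male mice, 1 mouse per sample. The authors trimmed reads with Trim Galore 0.6.7, aligned them to mm10 with HISAT2 2.2.1, counted them per gene with featureCounts and normalized them with DESeq2 1.44.0. The deposited values are a signal of gene counts divided by a size factor per mouse, computed within each age. Multiplication by the size factor gave whole reads (tolerance 0.02) for 100% of values checked in each mouse, although in 10-month mThy1 replicate 5 the step was too near 1 for this to be a test. All 20 single-mouse files equalled the table.

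Genotypes were compared per age with limma 3.58.1 (R 4.3.3, trend and robust) on log2(value + 1), for genes with at least 10 in at least 4 mice (7 months) or 5 mice (10 months). The difference between ages was fitted on all 20 mice, for genes with at least 10 in at least 4. P-values were adjusted by Benjamini-Hochberg over all genes tested, at 0.05. The intervals are 95% intervals of limma. Alternatives were edgeR 4.0.16 and DESeq2 1.42.0 on recovered reads, pseudocounts of 0.5 and 5, no filter, scaling to library totals, 1 fit of all mice, a replicate block, leaving out each mouse, and, added after seeing the data, marker sums as covariates. The fit was tested on simulated data. Scaling moved the median of all genes by less than 0.1.

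The enzymes and lists were chosen with earlier results of these data known. Named besides the 10 enzymes were, per glucose list, genes called in any comparison and the 2 most abundant, the 5 most correlated genes, and defining markers. Exon lengths came from GENCODE M21 and promoter windows from RefSeq (GRCm38.p6), which matched 10 of 10 enzymes.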

Additional observations from a re-analysis of the deposited data

Results flagged for a closer look

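Pfkl and Ldha stood out because the genotype effect itself differed between the ages. For Pfkl the effect was 0.21 at 7 months and -0.36 at 10 months, a difference of -0.57 (limma adjusted p = 0.00967), and for Ldha it was 0.041 and -0.42, a difference of -0.46 (adjusted p = 0.0295). All 5 mThy1 mice were below all 5 wild-type mice for both genes at 10 months, and the genotypes overlapped at 7 months. In 40 sets of values (10 enzymes in 4 groups), no mouse stood apart from its group by Dixon's criterion.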

How the results depend on the processing

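Counts of enzymes called were 0 at 7 months in all alternatives run. Shares of all genes called are given in brackets. The 6 calls at 10 months (7.67%) became 3 with the replicate block (6.72%). They became 0 with the neutrophil (0.338%), 0 with the monocyte (0.0734%) and 0 with the border macrophage covariate (0.0294%), and ran from 3 to 7 when 1 mouse was left out. They became 4 with no filter on low values (4.62%, where Aldoa, adjusted p = 0.0516, and Tpi1, 0.0594, were lost). They became 5 in 1 fit of all mice (7.07%, where Tpi1, 0.0598, was lost) or with edgeR (8.44%, where Tpi1, 0.0539, was lost). The enzymes' median of -0.28 at 10 months moved to -0.19 with the monocyte and -0.11 with the border macrophage covariate. The 2 calls for the difference between ages (6.36%) became 1 with the replicate block (3.33%) and 0 with the border macrophage covariate (1.22%), and ran from 1 to 2 with 1 mouse left out. The replicate numbers did not pair the mice (correlations of -0.13 to 0.0995 between same-numbered mice, of which 1 of 9 pairs was the best match), and the block is given only here. Of the other glucose genes, 88 were tested at 7 months and 5 were called (4.93%). These 5 calls became 3 with the block (2.98%), 9 in 1 fit of all mice (6.79%) and 12 with DESeq2 (7.91%). They became 10 with the monocyte covariate (6.41%) and 3 to 8 with 1 mouse left out. The 13 of 87 at 10 months (7.67%) became 1, 0 and 0 with the neutrophil, monocyte and border macrophage covariates (0.338%, 0.0734% and 0.0294%). With 1 mouse left out they became 6 (without mThy1 replicate 3 or 5) to 18 (without wild-type replicate 4). The 10 for the difference (6.36%) became 5 with the block (3.33%), 5 with the border macrophage covariate (1.22%) and 5 to 11 with 1 mouse left out. Over all genes, DESeq2 called 1145 at 7 months and 1677 at 10 months, against 684 and 1045 by limma.

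Values that changed sign were all uncalled. With covariates these were Pgk1 at 7 months (0.0075, monocyte), Hk2 at 10 months (0.042 neutrophil, 0.094 monocyte, 0.31 border macrophage), Pkm at 10 months (0.016, border macrophage), and, for the difference between ages, Hk1 (-0.057, border macrophage), Gapdh (0.0089, monocyte) and Pkm (0.010, monocyte). With the replicate block Gapdh gave 0.0086 for the difference. With 1 mouse left out, the ranges at 7 months were -0.035 to 0.12 for Tpi1, -0.079 to 0.048 for Pgk1, -0.025 to 0.081 for Pgam1 and -0.033 to 0.11 for Ldha, and at 10 months -0.024 to 0.052 for Hk1 and -0.12 to 0.034 for Hk2. The causes were not tested. With 4 to 6 mice per group, the standard errors of the enzymes on the log2 scale were 0.068 to 0.12 within an age. For the difference between ages they were 0.12 to 0.15, and their part in missing calls was not tested. The lowest value of any enzyme in any mouse was 1836 normalized counts (Pfkl).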

Other observations

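Of 8 pentose phosphate genes tested at 10 months, 1 was lower and 0 higher in mThy1 mice, against 3.79% and 3.88% of all genes. This was Pgd, 6-phosphogluconate dehydrogenase, at 7032 ± 181 (SD, n = 5) against 8607 ± 1068 (SD, n = 5) normalized counts (log2 fold change -0.28, limma adjusted p = 0.0468). The other abundant gene of the list, Tkt, transketolase, gave -0.20 (adjusted p = 0.158).

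Of 11 genes of gluconeogenesis and glycogen tested at 10 months, 2 were lower and 0 higher, against the same shares of all genes. Pygl, the liver-type glycogen phosphorylase, had 2443 ± 559 (SD, n = 5) normalized counts in mThy1 and 4738 ± 1254 (SD, n = 5) in wild-type mice (-0.94, limma adjusted p = 0.0455), and Pgm1, phosphoglucomutase, gave -0.34 (adjusted p = 0.0415). With 1 mouse left out, the Pgd and Pygl calls were lost except without wild-type replicate 4, and the Pgm1 call except without mThy1 replicate 4 or wild-type replicate 2. At 7 months Pygm, the muscle-type phosphorylase, was lower at a low level, 72.8 ± 18.4 (SD, n = 6) against 144.7 ± 20.2 (SD, n = 4) normalized counts (-1.01, adjusted p = 0.0297, lost without mThy1 replicate 2 or wild-type replicate 1, 2 or 3). The abundant Ugp2, which makes the glucose donor for glycogen, gave -0.094 at 10 months (adjusted p = 0.484).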
